A study of Mus musculus with 12 samples.

Results

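The antioxidant response driven by the transcription factor NRF2 was followed through 10 genes in mouse liver and liver tumors: Nfe2l2, which encodes NRF2 itself, Keap1, which encodes the protein that holds NRF2 in check, and 8 genes that NRF2 is known to switch on (Nqo1, Gclc, Gclm, Slc7a11, Txnrd1, Srxn1, Hmox1 and Osgin1). The genes were taken as the rows of the count table whose Entrez identifiers map to these symbols. All 10 were found among the 26301 genes of the table, and all 10 were among the 13882 genes that passed the filter on low counts.

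In unstressed cells KEAP1 brings NRF2 to a CUL3 ubiquitin ligase, and NRF2 is degraded as fast as it is made. Oxidants and electrophiles modify cysteines of KEAP1, after which NRF2 accumulates, pairs with a small MAF protein and binds antioxidant response elements in its target genes. In liver this program supplies glutathione, NADPH and conjugating enzymes, and in many liver cancers it is held active by mutations of NFE2L2 or KEAP1. Because NRF2 is controlled mainly as a protein, the Nfe2l2 transcript by itself is not a measure of its activity.

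The libraries came from 4 livers without tumors of adult wild-type mice (control), 4 spontaneous liver tumors of adult mice with E2f7 and E2f8 deleted through Alb-Cre (labelled DKO) and 4 spontaneous liver tumors of adult mice with Rb1, E2f7 and E2f8 deleted through Alb-Cre (labelled TKO). Alb-Cre is driven by the albumin promoter, which the paper describes as specific to hepatocytes. Cells in a piece of tissue in which that promoter was never active keep their alleles. The liver-deletion mice of the study had been bred into FVB. Tissue was taken from ageing animals that were followed to the end of life, and the labels give the age of each only as adult. Poly(A) RNA of tissue pieces was sequenced on a SOLiD instrument, with between 9165812 and 16424973 counted reads per library. In such bulk samples, fewer cells of a type and less RNA per cell cannot be told apart.

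Values are CPM, the usual measure of counts relative to library size, here with the sizes scaled by edgeR's TMM method, and errors are SDs over the 4 libraries of a group. The deleted genes were checked first. Rb1 was at 4.22, 5.47, 4.91 and 3.21 CPM in the 4 tumors labelled TKO, below the 6.52 to 11.3 CPM of the other 8 libraries. E2f7 was at 0.542 to 1.11 CPM in control livers and at 0.236 to 1.84 CPM in tumors, and E2f8 was at 4.52 to 8.97 CPM in control livers and at 7.59 to 52.2 CPM in tumors, so neither was lower across the tumors. Counts summed over a gene do not show which exons were read, and the group names are therefore used as labels. All 12 libraries had at most 6 reads of Xist and at least 1093 reads of 4 Y-linked genes, as in male mice.

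Libraries DKO 4 and TKO 4 stood apart from the others. On the second principal component of log2 CPM, which held 17.2% of the variance, they lay at 36.0 and 55.6 while the other 10 libraries lay between -49.7 and 15.8. Their Cps1, a urea cycle gene, was at 810 and 453 CPM against 1916 to 4727 CPM elsewhere, and their Cyp1a2, a cytochrome P450 of central-vein hepatocytes, was at 2681 and 3979 CPM against 102 to 834 CPM elsewhere. Albumin took 4.82% of the counts in TKO 4 and up to 22.7% in DKO 1. TKO 3 lay among the control livers on the first component, at -45.4 against -63.4 to -16.9 for control livers, while the other 7 tumors lay between 11.5 and 47.2. On the second component TKO 2 was lowest, at -49.7, with TKO 1 next at -25.8, and TKO 2 was not set apart.

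The 10 genes ranged widely in level. Per kilobase of exon in the GENCODE vM1 annotation, Gclc was highest in control livers with 120 CPM per kb, followed by Gclm with 51.9 and Osgin1 with 43.1. Txnrd1 (28.7), Hmox1 (20.3), Srxn1 (17.9) and Nfe2l2 (16.2) came next, and Keap1 (6.56), Nqo1 (3.61) and Slc7a11 (0.434) were lowest. From Gclm down to Nfe2l2, the 4 control values of each gene overlapped those of its neighbour in this order, while Gclc lay apart above them and Keap1, Nqo1 and Slc7a11 lay apart below. In tumors labelled DKO the order was led by Gclc (176 CPM per kb), Osgin1 (95.3) and Gclm (53.3), and in tumors labelled TKO by Gclc (133), Osgin1 (93.0) and Gclm (41.4). Keap1, Nqo1 and Slc7a11 were the 3 lowest in both. Nqo1 and Slc7a11 had only 20 to 155 and 42 to 126 reads per library, and the values of these 2 genes carry the largest counting error of the panel.

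Antioxidant response elements hold the letters TGACNNNGC. To show where the panel carries them near its start sites, RefSeq windows from 250 bases before to 50 bases after each start were searched on both strands in GRCm38.p6. Of the 10 genes, 8 matched the table and had 10 windows, and 4 windows of 4 genes held the letters (40%), against 12.4% of all 32851 windows. Gclc and Hmox1 had no entry. The 4 matches are printed 5′ to 3′ on the strand of the gene with 10 bases on each side, and the capitals mark the match.
Nfe2l2: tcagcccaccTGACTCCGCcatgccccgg
Gclm: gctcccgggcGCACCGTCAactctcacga
Txnrd1: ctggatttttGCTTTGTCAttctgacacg
Srxn1: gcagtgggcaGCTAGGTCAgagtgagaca

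The printed stretch of Nfe2l2 lies at chr2:75704885-75704913 on the minus strand, and the letters of its match read along the gene, starting 240 bases before the start site. The other 3 matches read on the strand opposite the gene. Their printed stretches lie at chr3:122245413-122245441 in Gclm, at chr10:82859104-82859132 in the second of 3 Txnrd1 windows, and at chr2:152105542-152105570 in Srxn1, where the first base of the match is 29 bases after the start. A match of these letters is a description and does not show binding, and the elements known far upstream of such genes lie outside these windows.

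The first question was whether the panel differed between tumors and control livers. By edgeR's quasi-likelihood test, adjusted over all 13882 genes, 0 of the 10 genes passed an adjusted p of 0.05 in tumors labelled DKO against control livers, where 2.42% of all tested genes did, and 0 passed in tumors labelled TKO, where 0.0864% did. Without adjustment, at p under 0.05, the counts were 3 of 10 (Nfe2l2, Srxn1 and Osgin1) against a background of 24.0%, and 2 of 10 (Nfe2l2 and Osgin1) against 16.3%. DESeq2 called 2 of 10 in tumors labelled DKO (Nfe2l2 and Srxn1), where it called 10.4% of genes, and 0 in tumors labelled TKO, where it called 3.49%. The shares for the panel at an unadjusted p were thus near those of genes at large.

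Direction and separation were counted too. In tumors labelled DKO, 8 of 10 log2 fold changes were above 0, with a median of 0.18 against 0.02 for all genes. For tumors labelled TKO 7 of 10 were above 0, with a median of 0.31 against 0.02. Some of these signs were unstable. Keap1, Gclm and Txnrd1 in tumors labelled DKO, and Keap1, Gclc and Nqo1 in tumors labelled TKO, changed sign in some other fits. In 3 genes (Nfe2l2, Srxn1 and Osgin1) all 4 tumors labelled DKO lay above all 4 control livers, where 8.87% of all genes did so and 16.2% separated in either direction. No gene of the panel separated tumors labelled TKO from control livers, where 7.67% of genes did.

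**Figure D1:**
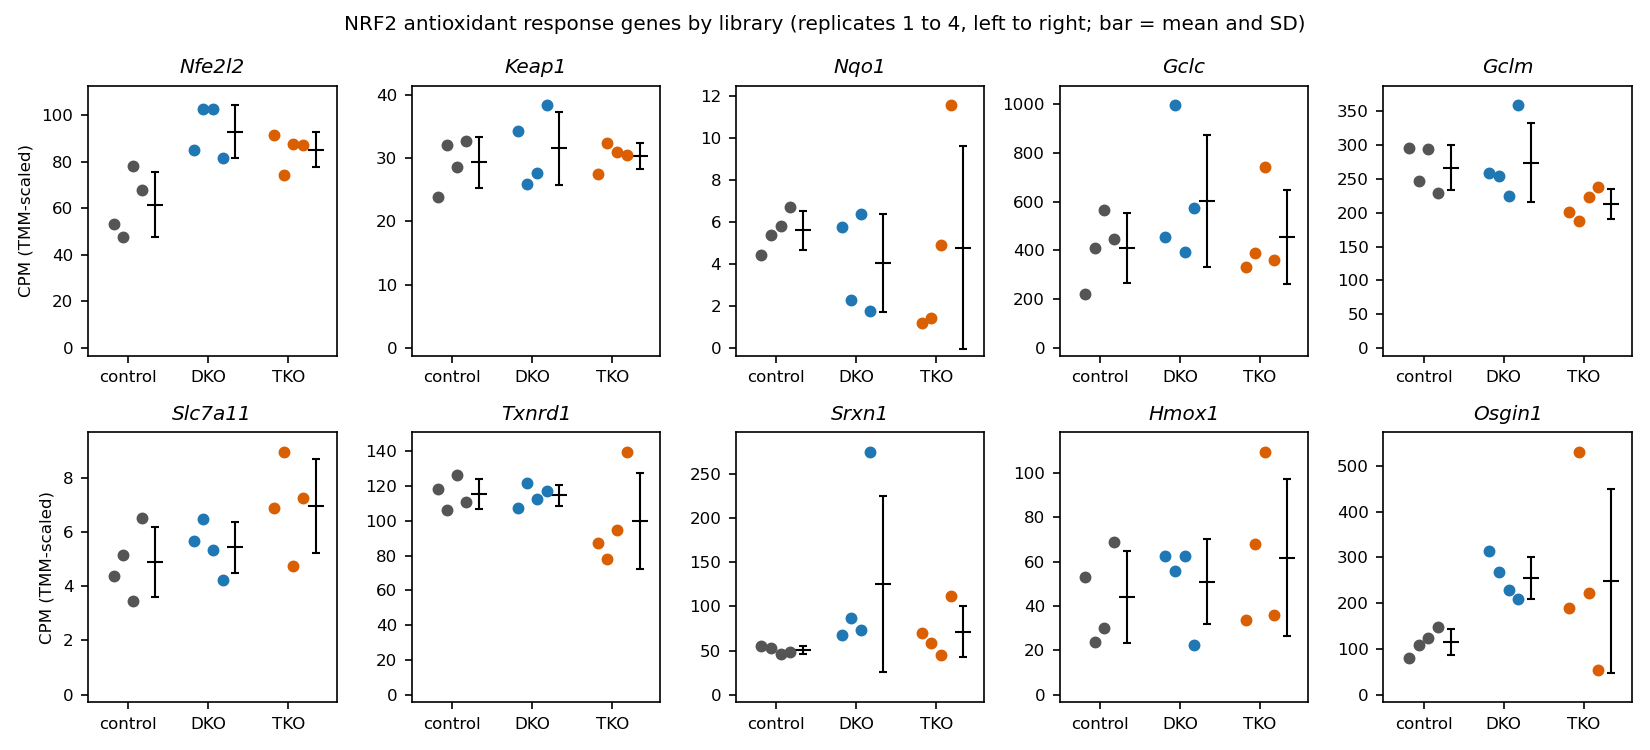
CPM (vertical axis, linear) of the 10 genes in each of the 12 libraries, with replicates 1 to 4 of each group from left to right and a bar for the mean and SD. Nfe2l2, Srxn1 and Osgin1 are the 3 genes in which the tumors labelled DKO all lie above the control livers, and Srxn1 in DKO 4, at 275 CPM, lies far above the rest.

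Among the regulators, Nfe2l2 (Entrez 18024, mm9 chromosome 2 from 75513570 to 75542698, minus strand) was at 53.2, 47.6, 77.9 and 67.7 CPM in control livers 1 to 4. It was at 84.9, 103, 103 and 81.4 CPM in tumors labelled DKO and at 91.3, 74.2, 87.6 and 87.3 CPM in tumors labelled TKO. Every tumor labelled DKO was thus above every control liver, and among tumors labelled TKO only TKO 2 fell below the highest control liver. The means were 61.6 ± 13.8, 92.9 ± 11.3 and 85.1 ± 7.49 CPM (SD, n = 4 each). The log2 fold change was 0.59 in tumors labelled DKO (95% interval 0.24 to 0.95), with an adjusted p of 0.0698 by edgeR and 0.0195 by DESeq2. The change in tumors labelled TKO was 0.47 (0.11 to 0.82, adjusted p = 0.199 by edgeR and 0.145 by DESeq2).

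For the 8 tumors together, Nfe2l2 was higher than in control livers by 0.53 on the log2 scale, with a standard error of 0.144 and an adjusted p of 0.0672 by edgeR and 0.0169 by DESeq2. In that comparison edgeR called 2.48% and DESeq2 9.49% of all genes, and 0 and 1 of the 10. Without DKO 4 and TKO 4 the difference was 0.54 with an adjusted p of 0.0781 by edgeR, so its size did not rest on these 2 tumors. For all tumors, 3 of the 10 genes passed an unadjusted p of 0.05 (23.0% of all genes), and 0 of the 10 separated all 8 tumors from the control livers (3.66% of all genes).

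Keap1 (Entrez 50868, chromosome 9 from 21034174 to 21043776, minus strand) lay between 23.9 and 32.7 CPM in control livers, between 25.9 and 38.3 CPM in tumors labelled DKO and between 27.5 and 32.3 CPM in tumors labelled TKO, and the 3 groups overlapped throughout. The log2 fold changes were 0.11 (95% interval -0.22 to 0.43) and 0.05 (-0.27 to 0.37) against control livers, and the second was -0.04 without control 1. These intervals bound any change of Keap1 to less than 1.5-fold either way.

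The genes of glutathione synthesis come next. Gclc and Gclm encode the catalytic and modifier subunits of glutamate-cysteine ligase, the rate-limiting enzyme of glutathione synthesis, and Slc7a11 encodes the cystine transporter that feeds it. Gclc (Entrez 14629, chromosome 9 from 77602342 to 77642292) was at 221, 410, 565 and 448 CPM in control livers, at 453, 994, 394 and 574 CPM in tumors labelled DKO and at 332, 388, 743 and 362 CPM in tumors labelled TKO. DKO 2 and TKO 3 were the 2 highest libraries, and the remaining tumors lay within the control range or near its top. The log2 fold changes were 0.55 (95% interval -0.25 to 1.36) and 0.15 (-0.65 to 0.95), with adjusted p values of 0.389 and 0.883 by edgeR. Without DKO 2 the first was 0.20, and without TKO 3 the second was -0.19.

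Gclm (Entrez 14630, chromosome 3 from 121948475 to 121972902) was at 295, 247, 295 and 230 CPM in control livers. It was at 259, 254, 225 and 358 CPM in tumors labelled DKO and at 201, 188, 223 and 238 CPM in tumors labelled TKO. In 3 of the 4 tumors labelled TKO it was below every control liver, and in TKO 4 it was within their range. The log2 fold change was -0.33 in tumors labelled TKO (standard error 0.174, adjusted p = 0.380 by edgeR) and 0.04 in tumors labelled DKO, where it was -0.12 without DKO 4 and -0.02 without control 4. Slc7a11 (Entrez 26570, chromosome 3 from 50168858 to 50247535, minus strand) was low throughout, at 3.46 to 6.52 CPM in control livers, 4.25 to 6.49 CPM in tumors labelled DKO and 4.76 to 8.95 CPM in tumors labelled TKO. Its log2 fold changes were 0.15 and 0.51, with adjusted p values of 0.738 and 0.326 by edgeR.

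Txnrd1 and Srxn1 serve thiol repair, since thioredoxin reductase 1 keeps thioredoxin reduced and sulfiredoxin 1 restores over-oxidized peroxiredoxins. Txnrd1 (Entrez 50493, chromosome 10 from 82296696 to 82360469) was at 106 to 126 CPM in control livers and 107 to 122 CPM in tumors labelled DKO. In tumors labelled TKO it was at 87.1, 78.03, 95.04 and 140 CPM, with 3 tumors below and TKO 4 above every library of the other groups. The log2 fold changes were -0.01 (95% interval -0.37 to 0.35, adjusted p = 0.982 by edgeR; 0.05, above 0, with total counts as the only scaling) and -0.21 (adjusted p = 0.577). Without TKO 4 the second was -0.42 (adjusted p = 0.151).

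Srxn1 (Entrez 76650, chromosome 2 from 151931252 to 151937112) had the largest fold change of the panel in tumors labelled DKO. It was at 55.5, 52.6, 46.2 and 47.8 CPM in control livers, at 67.4, 87.0, 73.5 and 275 CPM in tumors labelled DKO and at 70.1, 58.8, 44.7 and 112 CPM in tumors labelled TKO. All tumors labelled DKO and 3 of 4 tumors labelled TKO were above every control liver, and the highest of each group were DKO 4 and TKO 4. The log2 fold change in tumors labelled DKO was 1.32 (95% interval 0.39 to 2.24), with an adjusted p of 0.0939 by edgeR and 0.0306 by DESeq2. Without DKO 4 it was 0.59 with an adjusted p of 0.200 by edgeR. In tumors labelled TKO it was 0.50 (adjusted p = 0.598), and 0.19 without TKO 4. The size of the Srxn1 difference therefore depended on the 2 tumors that stood apart, while its separation from control livers held in the other 3 tumors labelled DKO.

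Nqo1 encodes a quinone reductase and is among the genes most often used to read NRF2 activity. Nqo1 (Entrez 18104, chromosome 8 from 109912125 to 109927106, minus strand) was at 4.45, 5.41, 5.83 and 6.74 CPM in control livers. It was at 5.75, 2.29, 6.39 and 1.77 CPM in tumors labelled DKO and at 1.21, 1.42, 4.91 and 11.6 CPM in tumors labelled TKO. The tumors lay on both sides of the control livers, with 4 tumors below every control liver, 3 within their range and TKO 4 above them. The log2 fold changes were -0.47 (95% interval -1.85 to 0.91) and -0.24 (-1.61 to 1.14), with adjusted p values of 0.687 and 0.895 by edgeR. Without DKO 4 the first was -0.22. Without TKO 4 the second was -1.18 with an adjusted p of 0.307, and it was above 0 without TKO 1 (0.08), without TKO 2 (0.06) or with total counts as the only scaling (0.05).

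Hmox1 encodes heme oxygenase 1, which is also strongly expressed by the macrophages that clear red cells. Hmox1 (Entrez 15368, chromosome 8 from 77617490 to 77624495) was at 53.3, 23.7, 30.1 and 68.8 CPM in control livers, at 62.7, 55.7, 62.6 and 22.4 CPM in tumors labelled DKO and at 33.8, 67.7, 109 and 36.0 CPM in tumors labelled TKO. Its log2 fold changes were 0.21 (adjusted p = 0.814) and 0.49 (adjusted p = 0.637) by edgeR, and the 3 groups overlapped. Without DKO 4 the first was 0.45, without control 4 it was 0.51 and without control 2 it was 0.0019. The second was 0.06 without TKO 3, and 0.79 without control 4. The summed CPM of 13 macrophage markers, of which Clec4f was the most abundant, was 808, 328, 390 and 773 in control livers, 370, 320, 686 and 188 in tumors labelled DKO and 299, 533, 886 and 302 in tumors labelled TKO. The library highest for Hmox1, TKO 3, was also the highest for the macrophage sum, and the library lowest for Hmox1, DKO 4, was the lowest for it. The part of macrophages in the Hmox1 values was not tested.

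Osgin1 encodes a growth inhibitor induced by oxidative stress. Osgin1 (Entrez 71839, chromosome 8 from 121958024 to 121970156) was at 80.0, 109, 123 and 148 CPM in control livers and at 314, 268, 228 and 210 CPM in tumors labelled DKO, with no overlap. In tumors labelled TKO it was at 189, 531, 221 and 54.5 CPM, so that 3 tumors were above and TKO 4 was below every control liver. The log2 fold changes were 1.15 (95% interval 0.09 to 2.20, adjusted p = 0.174 by edgeR) and 1.11 (0.05 to 2.17, adjusted p = 0.283). Fitted with the 8 libraries of control livers and tumors labelled DKO alone, the first passed the threshold (adjusted p = 0.0250 by edgeR), as did 5.65% of all genes. Without TKO 2 the second fell to 0.43 (adjusted p = 0.720), and without TKO 4 it was 1.44 (adjusted p = 0.112). For all 8 tumors it was 1.13 (adjusted p = 0.151), and 1.29 without TKO 4 (adjusted p = 0.0486).

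**Figure D2:**
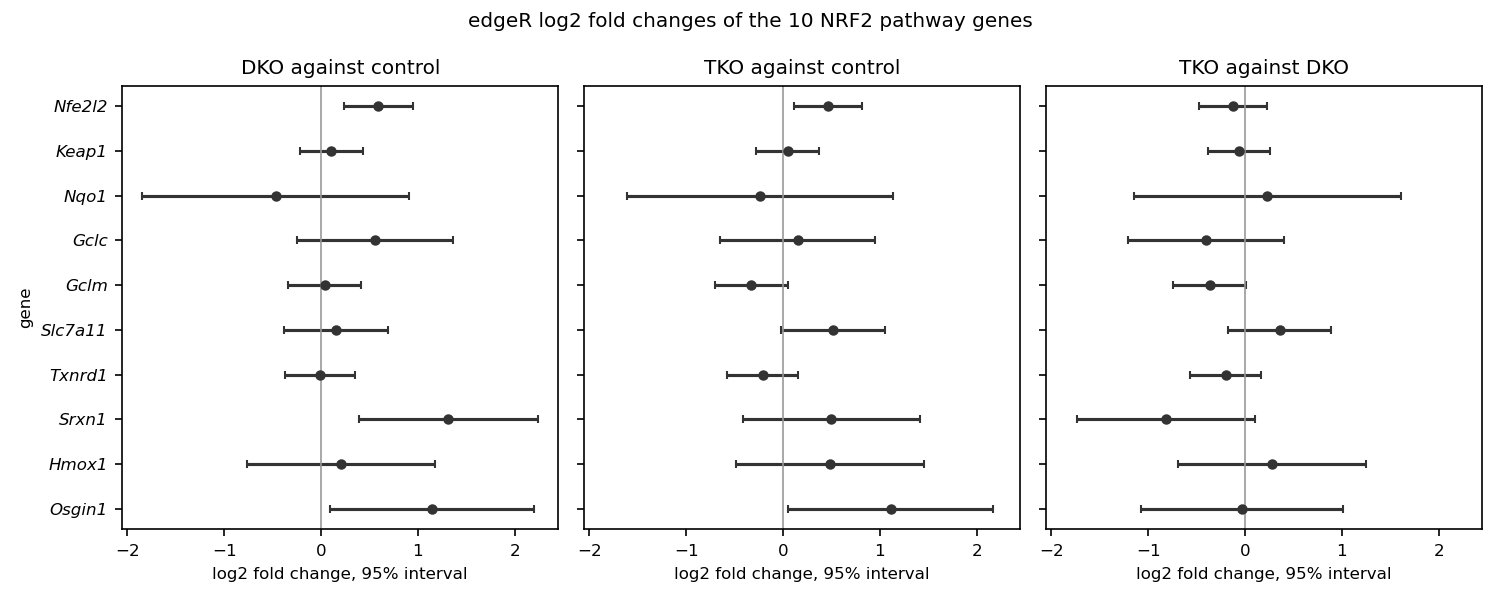
Log2 fold changes from edgeR (horizontal axis; points are estimates and bars 95% intervals) for the 10 genes in tumors labelled DKO against control, tumors labelled TKO against control, and tumors labelled TKO against DKO. The intervals of Nfe2l2, Srxn1 and Osgin1 lie above 0 in the first panel and those of Nfe2l2 and Osgin1 in the second, before any adjustment for the 13882 genes tested, and all 10 include 0 in the third.

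The second question was whether deletion of Rb1 in addition went with another level of the panel, which the comparison of the tumor groups addresses. No gene of the 10 passed an adjusted p of 0.05 between tumors labelled TKO and tumors labelled DKO, by edgeR (0% of all genes) or by DESeq2 (0.398% of all genes). At an unadjusted p under 0.05 the count was 0 of 10, where 9.00% of all genes passed, and 0 of 10 separated the groups, where 4.87% did. Srxn1 differed by -0.82 on the log2 scale (95% interval -1.73 to 0.10), but by -0.09 without DKO 4 and by -0.41 without DKO 4 and TKO 4. Gclc was at -0.40 (-1.20 to 0.40). Gclm was at -0.37 (-0.74 to 0.01), Nfe2l2 at -0.13 (-0.48 to 0.23) and Osgin1 at -0.03 (-1.07 to 1.01). The intervals of Nfe2l2, Keap1 and Txnrd1 stayed within a 1.5-fold difference either way, and those of the other 7 genes did not, so the groups are not shown to be alike in those 7.

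In no single tumor did all 8 target genes rise together. Counted against the 4 control livers, 2, 3, 2 and 4 of the 8 targets were above every control liver in DKO 1 to 4, and 3, 3, 3 and 4 in TKO 1 to 4. In the same order, 0, 1, 1 and 2 targets, and 3, 3, 3 and 1 targets, were below every control liver. Of all 13882 genes tested, 21.5% to 29.8% were above every control liver in a single tumor and 19.8% to 26.6% below. Against the mean of the control livers, 6, 6, 6 and 5 of the 8 targets were higher in DKO 1 to 4. The counts were 3, 4, 4 and 4 in TKO 1 to 4, and 4, 3, 5 and 5 in control 1 to 4. The share of all genes was not computed for this count. TKO 4, which had the highest Nqo1 and Txnrd1 of all libraries, had the lowest Osgin1, and TKO 2, which had the highest Osgin1 and Slc7a11, had the lowest Gclm and Txnrd1. DKO 4 had the highest Srxn1 and Gclm and the lowest Hmox1.

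**Figure D3:**
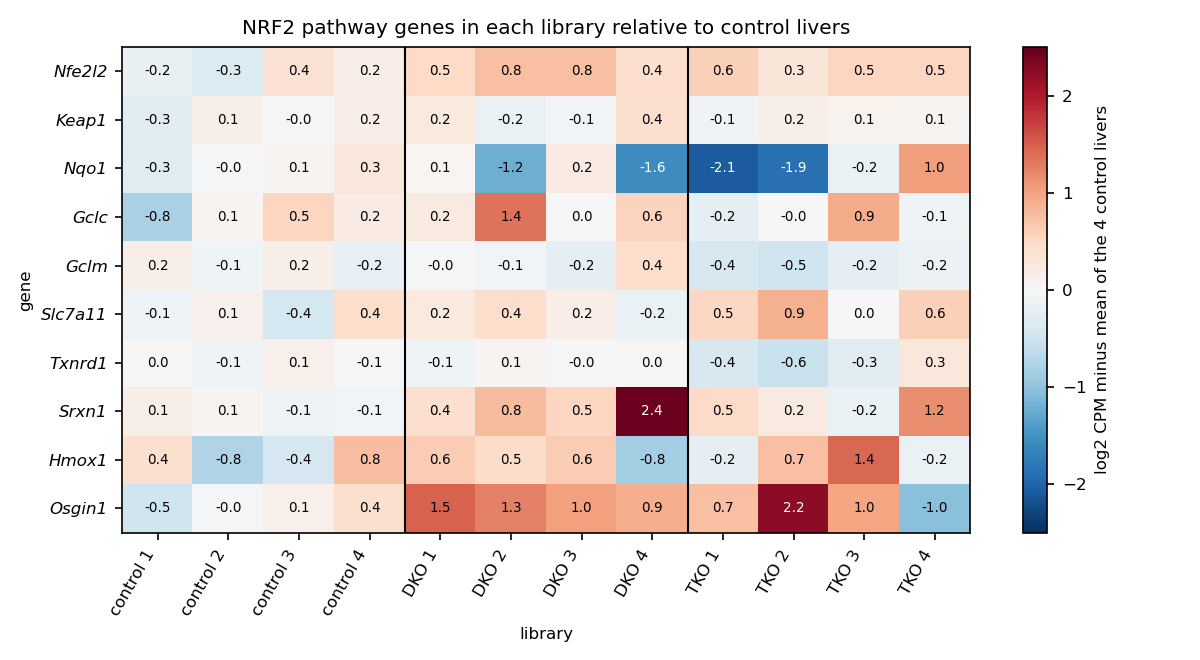
Log2 CPM of the 10 genes (rows) in the 12 libraries (columns), each as the difference from the mean of the 4 control livers, on a color scale from lower to higher. No tumor is higher or lower across all 8 target genes, and DKO 4 and TKO 4 stand out in Srxn1.

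The genes whose pattern was most like Nqo1 were sought among all tested genes outside the panel, as the 5 with the highest Pearson correlation of log2 CPM over the 12 libraries. They were Nat1 (r = 0.89), Prkacb (0.88), Rab11fip2 (0.86), 5730455P16Rik (0.86) and AA986860 (0.84). Without TKO 1 and TKO 2, the 2 libraries farthest from the median of Nqo1, the values over 10 libraries were 0.77, 0.84, 0.80, 0.81 and 0.75. Nat1 was at 2.97 to 3.69 CPM in control livers and below that in every tumor labelled DKO, with 0.362, 0.497, 1.61 and 2.98 CPM in TKO 1 to 4. These genes were selected as the highest of all correlations over libraries that share their groups and scaling, and no test was made. Of the other panel genes, Txnrd1 had the highest correlation with Nqo1 (0.64) and Osgin1 the lowest (-0.61). Without the same 2 libraries Txnrd1 was at 0.17, below Slc7a11 (0.33) and Hmox1 (0.19), and Osgin1 at -0.53, above Gclm (-0.62).

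A wider list of 37 NRF2 targets was read beside the panel: glutathione transferases, other conjugating and reducing enzymes, transporters, enzymes of the pentose phosphate pathway and ferritins. Of these, 36 were tested, Gpx2 having too few reads. By edgeR 0 of 36 passed in any comparison. At an unadjusted p under 0.05, 2 were higher and 3 lower in tumors labelled DKO, and 1 was higher and 0 lower in tumors labelled TKO, shares below those of all genes in both. The median log2 fold changes were -0.11 and 0.04, beside 0.02 and 0.02 for all genes. Between the tumor groups 3 were higher and 1 lower in tumors labelled TKO, with a median of 0.11, near the 9.00% of all genes at that threshold.

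The 3 highest genes of this list over all tumors were Abcc4, a conjugate exporter, and the glutathione transferases Gstm3 and Gstm2. Abcc4 was at 102 CPM in DKO 4 and 116 CPM in TKO 4 and at 2.70 to 12.4 CPM in the other 10 libraries. Gstm3 was at 1006 and 1216 CPM in the same 2 tumors and at 57.2 to 300.2 CPM elsewhere, and Gstm2 at 426 and 757 CPM against 36.5 to 230.0 CPM. Members of the Gstm family are related in sequence, and how reads were shared between them is uncertain. Their log2 fold changes against control livers were between 1.25 and 2.68, with adjusted p values between 0.233 and 0.472 by edgeR. Without DKO 4 and TKO 4 they were 0.71 for Abcc4, 0.94 for Gstm3 and 0.55 for Gstm2 in tumors labelled DKO, and -0.41, -0.58 and -0.77 in tumors labelled TKO. Among DKO 1 to 3, Gstm3 was above every control liver in 2 tumors. The 3 lowest over all tumors were Ces1g, a carboxylesterase, with log2 fold changes of -1.10 and 0.13 in tumors labelled DKO and TKO, Ftl1, the ferritin light chain, with -0.38 and -0.60, and Abcc3, another conjugate exporter, with -0.97 and -0.23.

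A further pair of genes of the wider list was picked out after their values were seen, because DESeq2 called both in tumors labelled DKO. These 2 were its only calls in this list there, where it called 10.4% of all genes. DESeq2 gave no adjusted p for Gstm3 or Abcc4 in any comparison, so it made no decision on them. Ptgr1, which reduces reactive alkenals and prostaglandins, was at 2.91 to 4.18 CPM in control livers and at 12.7, 8.86, 10.5 and 3.71 CPM in tumors labelled DKO. In tumors labelled TKO it was at 12.9, 8.81, 5.83 and 3.80 CPM. Thus 6 of 8 tumors were above every control liver, and DKO 4 and TKO 4 were within the control range. Its log2 fold changes were 1.39 and 1.20, with adjusted p values of 0.0772 and 0.190 by edgeR and 0.0188 and 0.0880 by DESeq2. A fit chosen after seeing the data left out DKO 4 and TKO 4, the 2 tumors within the control range. There Ptgr1 was called in tumors labelled DKO, with a log2 fold change of 1.64 and an adjusted p of 0.0462 by edgeR. In that fit and comparison 145 of all genes passed. The larger value follows from which tumors were left out and adds no support. Txn1, the substrate of thioredoxin reductase 1, was at 104 to 147 CPM in control livers and at 66.8, 65.2, 72.1 and 97.6 CPM in tumors labelled DKO, below every control liver, with a log2 fold change of -0.63 (adjusted p = 0.0936 by edgeR and 0.0474 by DESeq2). Neither gene was called in tumors labelled TKO by either tool.

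Among 10 other proteins that control or partner NRF2, 0 passed by edgeR in any comparison with all 12 libraries. At an unadjusted p under 0.05, 3 were higher in tumors labelled DKO (Maff, Mafk and Syvn1) and 0 lower, a share near the 24.0% of all genes. Maff and Mafk are small MAF partners of NRF2, which lack an activation domain of their own, and Syvn1 is a ubiquitin ligase that can degrade NRF2. Maff was at 5.41, 7.38, 6.24 and 4.98 CPM in control livers, at 11.3, 13.1, 10.2 and 33.1 CPM in tumors labelled DKO and at 9.59, 14.8, 4.30 and 17.9 CPM in tumors labelled TKO. All tumors labelled DKO and 3 of 4 labelled TKO were above every control liver, and the log2 fold changes were 1.5 (adjusted p = 0.0805 by edgeR and 0.0184 by DESeq2) and 0.96 (adjusted p = 0.314 by edgeR). Without DKO 4 the first was 0.95 (adjusted p = 0.172 by edgeR). Maff passed in tumors labelled DKO with only those 2 groups in the fit (adjusted p = 0.0492 by edgeR) and without TKO 3 (0.0452, and 0.0383 for all tumors). Of all genes, 5.65% passed in the fit of those 2 groups, and without TKO 3 651 genes passed for DKO and 1019 for all tumors. By voom, Mafk and Syvn1 were called in tumors labelled DKO (adjusted p = 0.0428 and 0.0450) and in all tumors (0.0350 and 0.0228), where voom called 13.0% and 13.1% of all genes. Mafk was at 0.79 and 0.56 and Syvn1 at 0.40 and 0.46 on the same scale. The lowest of this list were Cul3, the ligase scaffold that KEAP1 uses, at -0.02 and -0.36, Bach1, which represses Hmox1, at -0.17 and -0.23, and Mafg at -0.33 and -0.18.

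Among 16 antioxidant enzymes that are not classical NRF2 targets, 2 fell in tumors labelled DKO by edgeR and 0 rose, where 2.42% of all genes were called. DESeq2 called 6 lower, where it called 10.4% of all genes, and voom called 7, where it called 13.0%. Gpx1, the main selenium-dependent glutathione peroxidase of liver, was at 403, 1183, 722 and 968 CPM in control livers and at 203, 138, 253 and 323 CPM in tumors labelled DKO, with no overlap, and at 334, 283, 627 and 496 CPM in tumors labelled TKO. Its log2 fold change was -1.84 in tumors labelled DKO (standard error 0.376, adjusted p = 0.0425 by edgeR and 0.000128 by DESeq2) and -0.91 in tumors labelled TKO (adjusted p = 0.249 by edgeR). Sod2, the superoxide dismutase of mitochondria, was at 165, 185, 187 and 213 CPM in control livers, at 106, 122, 132 and 113 CPM in tumors labelled DKO and at 123, 93.2, 147 and 128 CPM in tumors labelled TKO. All 8 tumors were below every control liver, and the log2 fold changes were -0.66 (adjusted p = 0.0488 by edgeR) and -0.61 (adjusted p = 0.132 by edgeR and 0.00997 by DESeq2).

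Across these 16 enzymes, 7 were lower and 0 higher at an unadjusted p under 0.05 in tumors labelled DKO, while 6 lay below every control liver and 1, Gss, above, with a median log2 fold change of -0.47. Of all genes, 24.0% passed that p in either direction and 16.2% separated the groups. The tumors labelled TKO had 4 lower and 1 higher, beside 16.3% of all genes, with a median of -0.32. Cat (-0.92 and -0.34) was, with Gpx1 and Sod2, among the 3 lowest over all tumors. The 3 highest were Gss (0.46 and 0.46), which completes glutathione synthesis, Prdx4 (0.18 and 0.63) and Prdx3 (0.31 and 0.40), and none of these 3 passed the test with all 12 libraries. With only control livers and tumors labelled DKO in the fit, where 5.65% of all genes were called, Gss was higher (adjusted p = 0.0494 by edgeR). Gpx1 and Sod2 were also called for all 8 tumors against control livers, with log2 fold changes of -1.37 for Gpx1 (adjusted p = 0.0444 by edgeR) and -0.64 for Sod2 (0.0407). Both calls for all tumors were lost when any one of control 1, 2, 3 or 4, DKO 1, 2 or 4 and TKO 1 or 2 was left out (adjusted p from 0.0526 to 0.147 by edgeR), with total counts as the only scaling (0.0825 and 0.172) or without DKO 4 and TKO 4 together (0.0505 and 0.0528). In tumors labelled DKO both calls lay close to the threshold. With total counts as the only scaling the adjusted p was 0.0651 for Gpx1 and 0.191 for Sod2 by edgeR, and with no filter on low counts that for Sod2 was 0.0761. Sod2 did not pass when any single library other than TKO 2, TKO 3 or TKO 4 was left out (adjusted p from 0.0512 to 0.135), and Gpx1 did not pass without control 2, 3 or 4, without DKO 1, 2 or 4 or without TKO 1 (0.0535 to 0.134). The log2 fold change stayed between -2.06 and -1.61 for Gpx1 and between -0.72 and -0.60 for Sod2 over the fits that each left out a library. Without DKO 4 and TKO 4 together, the adjusted p by edgeR was 0.0497 for Gpx1 and 0.0820 for Sod2.

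Slc7a11 is also a target of ATF4, the factor of amino acid shortage and endoplasmic reticulum stress, so 8 genes of that response were read too. Ddit3, which encodes the stress factor CHOP, rose in tumors labelled DKO by edgeR. It was at 3.86, 1.72, 4.27 and 3.22 CPM in control livers, at 6.21, 12.1, 8.70 and 10.7 CPM in tumors labelled DKO and at 5.43, 12.9, 7.13 and 6.57 CPM in tumors labelled TKO, with all 8 tumors above every control liver. Its log2 fold changes were 1.51 (adjusted p = 0.0460 by edgeR) and 1.27 (adjusted p = 0.137 by edgeR and 0.0203 by DESeq2). The first was not called without control 1, 2, 3 or 4, without DKO 1, 2 or 4 or without TKO 1 (adjusted p from 0.0535 to 0.134 by edgeR). It was also not called without DKO 4 and TKO 4 together (0.0692), with total counts as the only scaling (0.0628) or with the replicate number as a block. For all 8 tumors Ddit3 was called at 1.39 (adjusted p = 0.0444 by edgeR), where 2.48% of all genes were called. That call was lost in the same fits and also without TKO 2.

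The other 7 genes of the ATF4 list did not pass by edgeR with all 12 libraries. Psat1 was called by DESeq2 in tumors labelled DKO (adjusted p = 0.0440) and in all tumors (0.0182), and by edgeR without TKO 3 in both tumor groups (0.0449 and 0.0432). Phgdh was called by DESeq2 in all tumors (0.0290) and by edgeR in tumors labelled DKO with only the 2 groups compared (0.0481). Of all genes, DESeq2 called 10.4% in tumors labelled DKO and 9.49% in all tumors, and the fit of only the 2 groups called 5.65%. Without TKO 3, edgeR called 651 genes in tumors labelled DKO and 231 in tumors labelled TKO. Phgdh (2.59 and 3.42) and Psat1 (1.46 and 1.48), both of serine synthesis, had the highest log2 fold changes of the list over all tumors, above Ddit3. Trib3 (0.11 and 0.34), Asns (-0.40 and 0.03) and Chac1 (-0.32 and -0.75) had the lowest. Phgdh was near the floor in control livers, at 0.407 to 1.83 CPM (6 to 25 reads). It was at 8.82, 6.72, 1.12 and 6.25 CPM in DKO 1 to 4 and at 9.53, 29.9, 0.384 and 0.746 CPM in TKO 1 to 4. Its fold change for TKO thus came from TKO 1 and TKO 2. Psat1 was at 2.37 to 4.91 CPM in control livers and at 11.9, 13.9, 2.30 and 13.1 CPM in TKO 1 to 4. At an unadjusted p under 0.05, 4 of the 8 were higher in each tumor group and 0 lower, with medians of 0.57 and 0.56, where 24.0% and 16.3% of all genes passed in either direction. Of 5 targets of the aryl hydrocarbon receptor, which also induces Nqo1, 4 were tested and 0 passed in any comparison by edgeR or DESeq2. At an unadjusted p under 0.05, 0 passed in tumors labelled DKO, and 1, Tiparp, was lower in tumors labelled TKO. Cyp1a1 was at 45.6 CPM in DKO 4 and 59.98 CPM in TKO 4 and at 1.69 to 15.9 CPM elsewhere, so both it and Cyp1a2 were highest in those tumors. Cyp1b1 had log2 fold changes of 0.99 and 0.22, and Tiparp of -0.32 and -0.43.

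**Figure D4:**
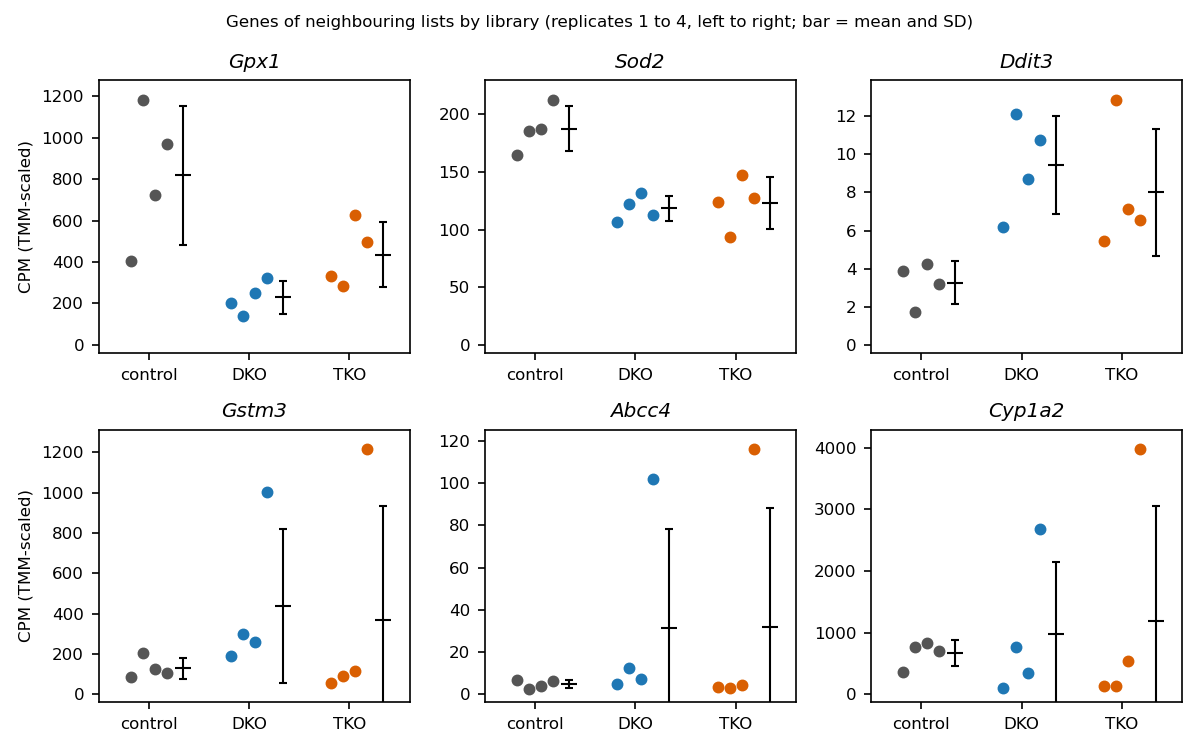
CPM (vertical axis, linear) of Gpx1, Sod2, Ddit3, Gstm3, Abcc4 and Cyp1a2 by library, with replicates 1 to 4 of each group from left to right and a bar for the mean and SD, which stops at the axis where it would go below it. Gpx1 and Sod2 are lower and Ddit3 higher in all tumors labelled DKO than in any control liver, and the high values of Gstm3, Abcc4 and Cyp1a2 come from DKO 4 and TKO 4.

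Markers of the cell types that a piece of liver or tumor can hold were summed per library. The hepatocyte sum over 6 genes, led by Alb, was 113791 ± 25375 CPM in control livers, 196761 ± 90536 CPM in tumors labelled DKO and 136696 ± 84239 CPM in tumors labelled TKO, with its lowest value of 49062 CPM in TKO 4. Alb was 286273 of the 313340 CPM in DKO 1, so this sum mostly follows Alb. In tumors labelled DKO, the log2 fold change was above 0 for Alb (0.92), Apoa1 (0.31), Apob (0.20) and Hnf4a (0.19). It was below 0 for Cps1 (-0.56) and Ttr (-0.86). Hnf4a was at 541 CPM in TKO 4, against 553 to 717 CPM in control livers. The macrophage sum was 575 ± 251, 391 ± 211 and 505 ± 276 CPM. The endothelial sum over 5 genes, led by Kdr, was 103 ± 26.7, 143 ± 30.2 and 151 ± 35.8 CPM, and the cholangiocyte sum over 5 genes, led by Spp1, was 37.3 ± 9.21, 59.99 ± 35.2 and 40.1 ± 10.4 CPM. Krt7, a defining marker of bile duct cells, was at 0.118 to 0.887 CPM. The stellate sum over 5 genes was 81.0 ± 30.4, 84.8 ± 46.0 and 82.3 ± 16.7 CPM, the lymphocyte sum over 3 genes 14.1 ± 6.75, 11.5 ± 5.89 and 11.1 ± 2.76 CPM, and the erythroid sum over 3 genes 667 ± 76.9, 813 ± 501 and 933 ± 407 CPM. Of all these markers, 0 passed by edgeR in any comparison. In tumors labelled DKO, 2 endothelial markers were higher and 1 hepatocyte marker was lower by DESeq2 and at an unadjusted p under 0.05, and 1 macrophage marker was lower at an unadjusted p, where 10.4% and 24.0% of all genes passed by DESeq2 and at that p. The 2 endothelial markers, Pecam1 and Lyve1, were also called by DESeq2 for all tumors (adjusted p = 0.0132 and 0.0344), and both lay above every control liver in all tumors labelled TKO, where 7.67% of all genes separated, with log2 fold changes of 0.93 and 1.60. Of the other endothelial markers, Cdh5 (0.65 and 0.53) and Kdr (0.19 and 0.37) also had log2 fold changes above 0 in tumors labelled DKO and TKO. Stab2 was at -0.42 and 0.37, below 0 in tumors labelled DKO. The 2 markers were named after their values were seen. At an unadjusted p under 0.05 the tumors labelled TKO had 1 endothelial marker higher and 1 macrophage marker lower, where 16.3% of all genes passed. The part of these cell types in the values of the panel was not tested.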

How the data were processed

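Per the labels, BWA placed the reads on mm9 and featureCounts counted them. The authors deposited raw counts per Entrez gene, with no normalization. Versions, the strand setting and the handling of reads with several positions are not given in the sources used here. Each library came from a different mouse, and 0 columns were left unused. Symbols were matched for 24191 of the 26301 identifiers (99.4% of counts).

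Counts were fitted with edgeR 4.0.16 in R 4.3.3, with TMM scaling, the filterByExpr filter, a mean per group over all 12 libraries, the quasi-likelihood test and Benjamini-Hochberg adjustment over 13882 genes at 0.05. DESeq2 1.42.0 and limma 3.58.1 (voom with quality weights) were alternatives. The scripts were tested on simulated counts. Positions and exon lengths came from GENCODE vM1 on mm9, and start-site windows from RefSeq on GRCm38.p6, whose coordinates were kept apart. The genes and lists were chosen with earlier results of these data known. All 10 genes were named, and from each other list those called and the 3 highest and 3 lowest over all tumors. Ptgr1, Txn1, Pecam1, Lyve1, Nat1's values and the libraries set apart were picked out after values were seen.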

Additional observations from a re-analysis of the deposited data

Results flagged for a closer look

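Within groups of 4 libraries, the highest or lowest library was compared with its nearest neighbour over 38 genes and 114 groups, and 15 groups held a library whose gap to the others exceeded Dixon's 95% critical value as a share of the group's range. Chance gives about 1 in 20 groups of normally distributed values, but most of these genes were named for the size of their fold change, so that share is no measure of how many to expect here.

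In the panel, Gclc in TKO 3 was at 743.3 CPM, against 332 to 388 CPM in the other tumors labelled TKO, and Srxn1 in DKO 4 was at 275 CPM, against 67.4 to 87.0 CPM in the other tumors labelled DKO. Of the regulators, Maff in DKO 4 was at 33.1 CPM against 10.2 to 13.1 CPM, Mafk in control 2 at 14.3 CPM against 6.22 to 6.67 CPM, and Syvn1 in TKO 4 at 49.5 CPM against 71.8 to 75.9 CPM.

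Of the wider targets, Gstm3 was at 1006 CPM in DKO 4 (190.4 to 300.2 CPM in the rest of its group) and at 1216 CPM in TKO 4 (57.2 to 116 CPM). Gstm2 was at 757 CPM in TKO 4 (36.5 to 72.4 CPM). Abcc4 was at 102 CPM in DKO 4 (4.75 to 12.4 CPM) and at 116 CPM in TKO 4 (3.27 to 4.60 CPM), and Abcc3 at 387 CPM in TKO 3 (99.4 to 131 CPM). In the other lists, Prdx3 in TKO 4 was at 290.4 CPM against 81.7 to 92.7 CPM, Asns in control 1 at 4.38 CPM against 1.97 to 2.34 CPM, Cyp1a1 in TKO 4 at 59.98 CPM against 2.65 to 10.05 CPM, and Cyp1a2 in TKO 4 at 3979 CPM against 135 to 539 CPM. Of the 15 values so found, 11 were from DKO 4 or TKO 4, and Cyp1a2 had already been used to describe these tumors as apart. No cause was tested.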

How the results depend on the processing

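Of 830 recomputed fold changes of the 10 genes, 791 kept their direction and their side of the threshold, and the 34 that changed direction were all of differences that passed no test. The panel had 0 calls against control livers except with DESeq2 (2 in tumors labelled DKO and 1 in all tumors), with only the 2 groups compared (1 in tumors labelled DKO) and, for all tumors, over the fits that each left out a library (0 to 1). The wider targets had 2 calls in tumors labelled DKO with DESeq2 and 2 with voom, and 1 without DKO 4 and TKO 4 (an alternative chosen after seeing the data). For all tumors each of these 3 gave 1 call. The other antioxidant enzymes, with 2 calls in tumors labelled DKO and in all tumors, had 6 and 5 with DESeq2, 7 and 6 with voom, 0 and 0 with total counts as the only scaling, 1 and 2 with no filter, 1 and 0 without DKO 4 and TKO 4, and 0 to 3 and 0 to 4 over the fits that each left out a library. The regulators, with 0 calls, had 1 and 1 with DESeq2, 2 and 2 with voom, and 1 in tumors labelled DKO with only the 2 groups compared. Over all genes, voom called 1804 for DKO and 1813 for all tumors, and the fit of only the 2 groups 759 for DKO. There were 59 and 61 calls with total counts as the only scaling and 145 and 168 without DKO 4 and TKO 4, so the counts of calls fell over all genes too. Leaving out a library gave 0 to 651 calls for DKO, 0 to 231 for TKO and 0 to 1019 for all tumors, against 336, 12 and 344.

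The same-numbered libraries come from different mice, and the correlation of their deviations was between -0.17 and 0.37. The sample descriptions also carry codes with letters that recur across groups. What a letter marks is not stated in the labels, and it was not used as a block. Control 2 and control 3, which share a letter, were the most alike of the control livers by the chi-square of their counts per gene (22.5, against 70.6 to 84.5 for the other pairs). With the replicate number as a block the panel had 0 calls in every comparison, Ddit3 was not called in tumors labelled DKO (adjusted p = 0.0558 by edgeR) or in all tumors (0.0565), and Nqo1 changed sign between the tumor groups (-0.10).

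Further changes of direction, as log2 fold changes, were as follows. With total counts as the only scaling, which moved the median of all genes to 0.07 for DKO, 0.17 for TKO, 0.11 between tumors and 0.12 for all tumors, Keap1 between tumors was 0.044, Nqo1 for TKO 0.051, and Txnrd1 0.047 for DKO and 0.017 for all tumors. Txnrd1 for DKO was 0.00631 with at least 10 counts in every library and 0.00216 with no filter. With voom, Nqo1 between tumors was -0.65, Gclc for TKO -0.041 and Gclm for DKO -0.070. Without DKO 4 and TKO 4, Keap1 was -0.0041 for DKO and 0.031 between tumors, Nqo1 between tumors -0.97, Gclm for DKO -0.12 and Osgin1 between tumors 0.20. Leaving out each library in turn gave Keap1 from -0.041 to 0.10 for TKO, -0.14 to 0.048 between tumors and -0.011 to 0.13 for all tumors. Nqo1 went from -1.18 to 0.080 for TKO and from -0.70 to 0.55 between tumors, Gclc from -0.19 to 0.34 for TKO, Gclm from -0.12 to 0.12 for DKO and Txnrd1 from -0.047 to 0.036 for DKO. Between tumors, Hmox1 went from -0.15 to 0.48 and Osgin1 from -0.72 to 0.30. The cause of these changes was not tested. A fit with sex as a factor could not be fitted, since all libraries read as male. With 20 to 155 reads per library, Nqo1 carries a large counting error, as Slc7a11 does, and the limits of single genes were not compared.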
